A study of Mus musculus with 8 samples.

Results

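The haem synthesis genes studied here are the 8 enzyme genes Alas1, Alas2, Alad, Uros, Urod, Cpox, Ppox and Fech and the mitochondrial carrier gene Slc25a38. They were chosen by gene symbol, and all 9 were found among the 47729 genes of the deposited count table. All 9 passed the filter on low counts, which left 13462 genes to test. RNA came from bone marrow of C57BL/6 recipients, 4 with a scrambled shRNA (scrambled) and 4 with an shRNA against Fubp1 (knockdown). In both groups donor marrow from mice given 5-fluorouracil carried BCR-ABL1, the kinase fusion that drives chronic myeloid leukaemia, with a red fluorescent reporter (RFP) from a retrovirus, and the shRNA with the Venus reporter from a lentivirus. Recipients of both groups were irradiated, and Lineage- BCR-ABL1-RFP+ shRNA-Venus+ DAPI- marrow cells were sorted. So the controls carry the oncogene too, every sample is a mix of cells at several stages, and no age of the mice is given in the labels.

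Haem is made from glycine and succinyl-CoA in steps that begin in the mitochondrion, pass through the cytosol and end in the mitochondrion again. The first step, the joining of glycine to succinyl-CoA, is rate limiting and is encoded by separate genes: ALAS1 serves nearly all cells, while ALAS2 is the erythroid form on the X chromosome. Erythroid cells make most of the body's haem, for haemoglobin, and myeloid cells need it for enzymes such as myeloperoxidase.

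The first stretch below carries a known control signal of Alas2, the gene with the largest fitted change of the 9. The other stretches are promoter sequences of Alas2 and of Cpox, the most abundant of the 9, with matches to a short motif. The erythroid transcript has an iron-responsive element in its 5′ untranslated region, a hairpin that iron regulatory proteins bind to hold back translation when iron is short. A script looked for its form, the loop CAGTGN on a stem of 5 paired bases preceded by a C, in 34 GENCODE M21 transcripts of the 9 genes that have a 5′ untranslated region. It was found in 2 of the 2 Alas2 transcripts and in 0 transcripts of the other genes. The Alas2 element lies at chrX:150547458-150547485 (GRCm38, plus strand), within the first exon, with the loop in capitals.
Alas2 iron-responsive element: ttggttcgtcctCAGTGCagggcaacag
RefSeq promoter windows of GRCm38.p6 matched 8 of the 9 genes, in 11 windows of 250 bases upstream of a start site. GATAA, the core that GATA factors bind, occurred on either strand in 3 of the 11, one each of Alas2, Cpox and Uros, and in 22.6% of all 32851 windows. The sites of Alas2 and Cpox are in capitals below, each read as TTATC on the strand shown. The Alas2 stretch is chrX:150547167-150547374 (GRCm38.p6, plus strand) and stops before the GENCODE start. The Cpox stretch is chr16:58669958-58670207 (plus strand).
Alas2 promoter: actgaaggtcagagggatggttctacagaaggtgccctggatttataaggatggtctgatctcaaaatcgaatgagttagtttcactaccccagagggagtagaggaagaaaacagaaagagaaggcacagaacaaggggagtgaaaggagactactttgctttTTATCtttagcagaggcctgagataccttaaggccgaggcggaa
Cpox promoter: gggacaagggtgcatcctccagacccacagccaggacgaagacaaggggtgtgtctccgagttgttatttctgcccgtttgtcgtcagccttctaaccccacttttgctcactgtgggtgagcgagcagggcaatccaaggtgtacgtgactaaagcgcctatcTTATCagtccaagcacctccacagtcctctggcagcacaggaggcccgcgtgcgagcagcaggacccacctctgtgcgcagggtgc
These matches describe the letters only; no binding was measured.

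The libraries held 22465303 to 44761356 counts, and for the 9 genes 705 to 54484 counts each. Levels are given in CPM, counts per 1000000 counts after scaling by the trimmed mean of M-values (TMM). Fubp1 measured 284 to 396 CPM in the scrambled and 220 to 281 CPM in the knockdown libraries, lowest in replicate 3. The groups did not overlap (log2 fold change -0.39, SE 0.12; edgeR adjusted p = 0.0604). The first principal component, 61.1% of the variance, placed knockdown replicate 3 at -29.0, among the scrambled libraries (-57.3 to -13.7), and the other knockdown libraries at 34.1 to 81.2. Results that rest on this library are given with and without it. It was singled out by these same data and not by a label, so p-values without it follow that choice. Of lineage genes, Ms4a1, Cd3e and Cd2 had no counts in any library, and the summed B and T cell markers reached 3.71 and 12.2 CPM at most. The summed progenitor markers spanned 441 to 755 CPM in the scrambled and 356 to 547 CPM in the knockdown libraries. Their genes went both ways, none of them called by edgeR. Kit, Gata2 and Myb, the most abundant, had log2 fold changes of -0.86, -0.41 and -0.33. Cd34, Flt3, Meis1 and Mecom had 2.39, 2.99, 1.36 and 0.44. Megakaryocyte markers spanned 68.4 to 86.4 and 132 to 213 CPM, with 2 of 5 tested called higher by edgeR, beside 8.02% of all tested genes. Monocyte markers spanned 5.38 to 9.84 and 10.2 to 47.5 CPM.

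Of the 9 genes, only Alas2 passed the test between the groups with all libraries, and it rose. Over all tested genes edgeR called 8.02% higher and 7.29% lower at an adjusted p of 0.05, so a count of 1 in 9 is near that background. No member passed as lower by edgeR, while DESeq2 called 1 lower and limma-voom 0. At an unadjusted edgeR p under 0.05 there were 2 lower, Urod and Cpox, and 3 of the 9 in either direction. Over all tested genes 4508 of 13462 had such a p, so that count too is near the background. The median log2 fold change of the 9 was 0.07, against 0.00 (0.0012) over all tested genes. With 1 library left out, the median of the 9 ran from -0.06 (without knockdown replicate 3) to 0.14 (without knockdown replicate 2). Knockdown replicate 3 was the highest knockdown library for 8 of the 9 genes and the lowest for Alas1, the remaining one. Without it edgeR called 2 members higher, Alas1 and Alas2, and 3 lower, Slc25a38, Urod and Cpox. In that fit 14.1% of all tested genes were called higher and 10.6% lower. In either direction the share was 24.7%, against 15.3% with all libraries. The library was picked out by its values, so the added calls are no separate evidence.

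**Figure D1:**
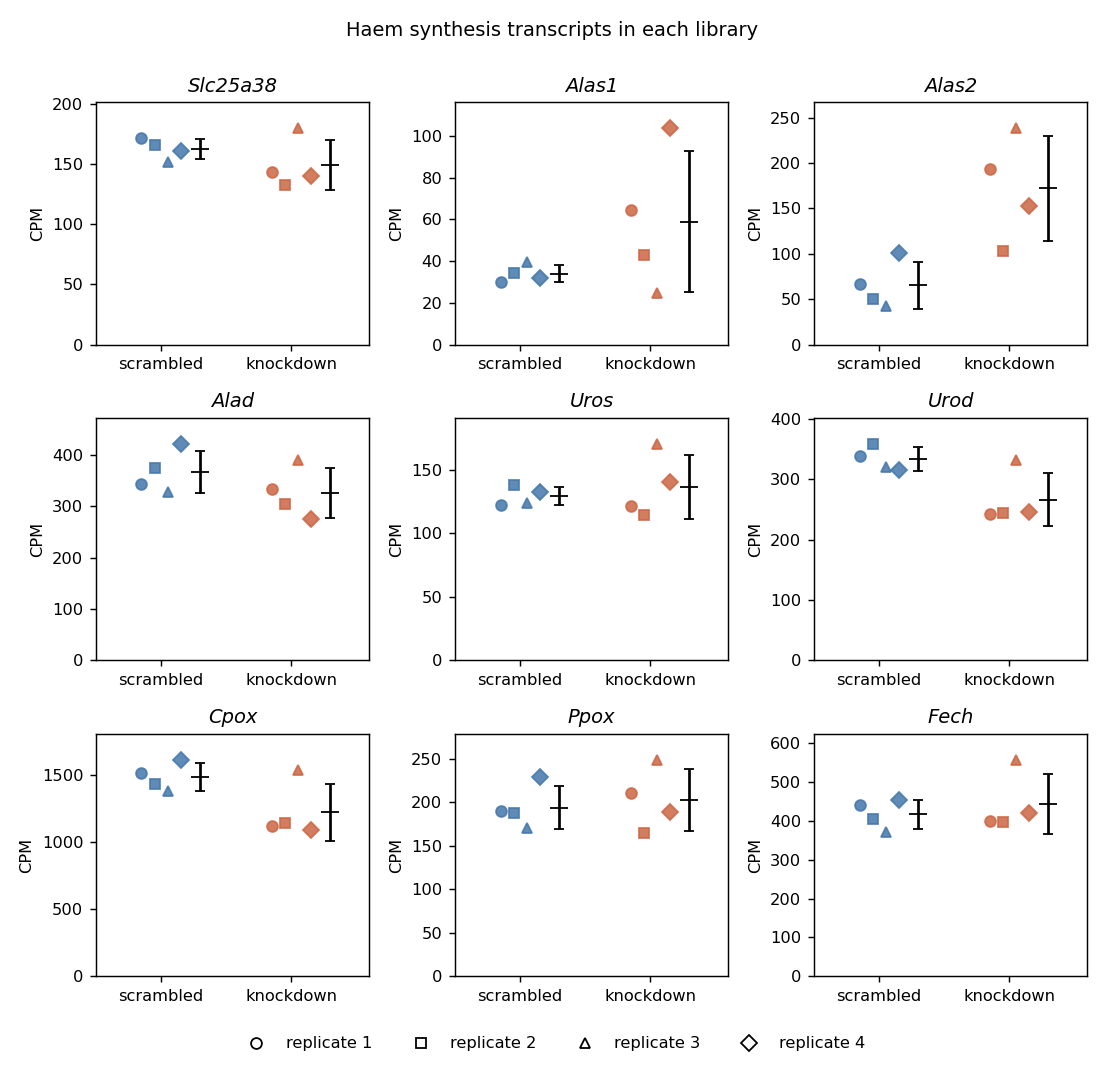
CPM of the 9 genes in each library, with the replicate number as the marker shape and the group mean ± SD as the bar to the right of the points (n = 4 per group). All 4 knockdown points of Alas2 lie above its scrambled points, while the triangle of knockdown replicate 3 stands above the other knockdown libraries for Urod, Cpox and Fech.

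Alas2 encodes the erythroid 5-aminolaevulinate synthase. Scrambled mice 1 to 4 had 67.3, 50.6, 42.2 and 100.4 CPM, and knockdown mice 1 to 4 had 194, 103, 238 and 153 CPM. The lowest knockdown library, replicate 2, lay just above the highest scrambled library, replicate 4, so the groups did not overlap. Of all tested genes 9.54% stood apart in that direction and 20.7% in either. The log2 fold change was 1.40 (SE 0.33, 95% interval 0.65 to 2.16), a 2.65-fold rise, with an edgeR adjusted p of 0.0299. The call ended without scrambled replicate 1 (adjusted p = 0.0708), 2 (0.0879) or 3 (0.0686), without knockdown replicate 1 (0.0663), and with no low count filter (0.0929). It was called in 8 of the 14 alternatives, over which the log2 fold change ran from 1.20 to 1.67 and the adjusted p from 0.00191 to 0.0939. Without knockdown replicate 3 the log2 fold change was 1.20 (adjusted p = 0.0362). The authors' deposited table gives a log2 fold change of 1.09 with an adjusted p of 0.00203. The gene (ENSMUSG00000025270, chromosome X from 150547375 to 150570638, plus strand of GRCm38) shares 311 exonic bases with the antisense gene Apex2. The strand setting of the counting is not stated in the sources used here, so reads from that stretch cannot be assigned. Apex2 measured 20.9 ± 2.05 and 17.9 ± 2.08 CPM (SD, n = 4 per group; edgeR adjusted p = 0.207).

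Alas2 moved with genes of late red cell stages. By the root mean square difference between centred log2 CPM over the 8 libraries, its nearest genes among 9287 with a mean of at least 5 CPM were Hba-a2 (0.12), Tmod1 (0.21) and Hbb-bs (0.22). Hba-a2 encodes an alpha globin, Hbb-bs a beta globin and Tmod1 a cap of the red cell's actin filaments. For Hbb-bs, scrambled mice 1 to 4 had 378, 202, 168 and 446 CPM, and knockdown mice 1 to 4 had 980, 620, 1222 and 860 CPM. Both genes thus ranked the libraries of each group alike, replicates 4, 1, 2 and 3 from high to low in the scrambled group and 3, 1, 4 and 2 in the knockdown group. Hbb-bs was picked for its closeness to Alas2 over these same values, so the shared order is no separate evidence. Of 4 tested globin genes 2 rose by edgeR, beside 8.02% higher over all tested genes. These were Hbb-bs (log2 fold change 1.63, SE 0.35, edgeR adjusted p = 0.0230) and Hbb-bt (1.17, SE 0.32, adjusted p = 0.0440). How reads divide among the near-identical globin copies is uncertain. Ahsp was not analysed here. Leaving out scrambled replicates 2 or 3 or knockdown replicate 1, or using no low count filter, ended both calls, and over all 14 alternatives Hbb-bs was called in 9 and Hbb-bt in 6. Hbb-bt also lost it when scrambled replicate 1 or knockdown replicate 3 or 4 was left out, with an adjusted p of up to 0.138 over the alternatives. Of the 12 late erythroid markers 2 rose by edgeR, Tmod1 (log2 fold change 1.41) and Xpo7 (1.00), and 1 fell, Ermap (-0.62). Over all tested genes 8.02% were called higher and 7.29% lower. Tmod1 was called in 9 of the 14 alternatives and lost its call without scrambled replicates 1, 2 or 3 and with no low count filter (adjusted p up to 0.0842). Xpo7 was called in 13 and lost its call without scrambled replicate 2. Without knockdown replicate 3 the list held 2 higher and 3 lower. Their summed level was 7034 to 8468 CPM in the scrambled libraries and 5699 to 9071 CPM in the knockdown libraries, the highest being knockdown replicate 3. In bulk RNA a change in the share of late erythroid cells and a change of RNA per cell cannot be told apart, and the part of these markers in the Alas2 result was not tested.

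Alas1, which encodes the form of the synthase found in most cells, spread far more between knockdown mice. Scrambled mice 1 to 4 had 30.1, 34.4, 39.5 and 31.7 CPM, and knockdown mice 1 to 4 had 64.4, 43.1, 24.7 and 103.6 CPM. Knockdown replicates 1, 2 and 4 lay above every scrambled library and replicate 3 below every one. With all libraries the log2 fold change was 0.80 (SE 0.38, 95% interval -0.08 to 1.68; edgeR adjusted p = 0.185). Without knockdown replicate 3 it was 1.04 (SE 0.26, adjusted p = 0.0277), and without knockdown replicate 4, the highest, 0.37; the adjusted p ran from 0.0277 to 0.432 over the alternatives. The gene (ENSMUSG00000032786, chromosome 9 from 106233455 to 106248654 on the minus strand) shares 465 exonic bases with the antisense transcript 4930500F10Rik, which reached at most 0.165 CPM.

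The genes nearest to Alas1 by the same measure were Cbfb (0.07), Tnfaip8 (0.14) and Jak3 (0.15). Within each group, the order of the mice by Alas1 was that of an early granulocyte gene, picked out after its values were seen. This was Mpo, which encodes myeloperoxidase, a haem enzyme of granulocyte precursors, stood at 21.1, 98.6, 196 and 51.7 CPM in scrambled mice 1 to 4. In knockdown mice 1 to 4 it stood at 1182, 530, 53.4 and 2169 CPM (log2 fold change 3.42; edgeR adjusted p = 0.0669, and 0.00799 to 0.316 over the alternatives). Within the knockdown group both genes ranked the mice 4, 1, 2 and 3 from high to low, and within the scrambled group 3, 2, 4 and 1. Over all 8 mice the orders differed, since knockdown replicate 3 was the lowest for Alas1 but stood above scrambled replicates 1 and 4 for Mpo. The 7 early granulocyte markers other than Calr summed to 35.5 to 330 CPM in the scrambled and 86.0 to 3592 CPM in the knockdown libraries, the lowest knockdown value being replicate 3. Of the full list, Calr included, 0 of 7 tested genes passed by edgeR and all 7 had an unadjusted p under 0.05, as had 4508 of all 13462 tested genes. Limma-voom called 0, DESeq2 called 8 of 8, and without knockdown replicate 3 edgeR called 7 of 7, all higher. Late neutrophil markers summed to at most 40.9 CPM in any library, with Ly6g and Camp under 1 CPM in all. The part of granulocyte precursors in the Alas1 values was not tested.

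**Figure D2:**
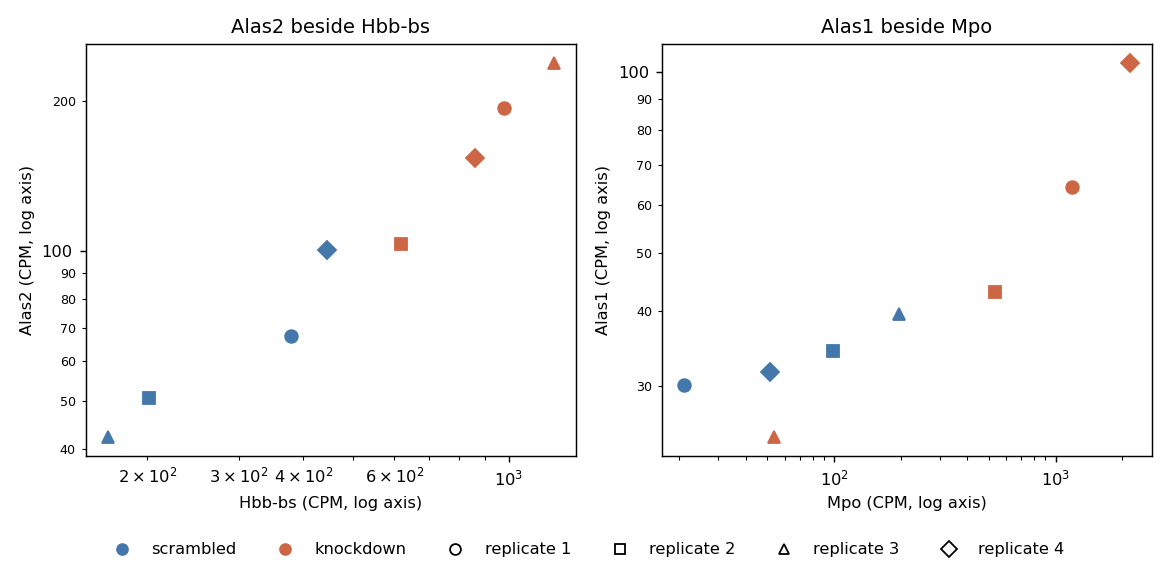
Left, Alas2 against the beta globin gene Hbb-bs, and right, Alas1 against the myeloperoxidase gene Mpo, in CPM on log axes, with 1 point per library coloured by group. Knockdown replicate 3 holds the highest Alas2 and Hbb-bs (238 and 1222 CPM) and the lowest Alas1 (24.7 CPM), and knockdown replicate 4 the highest Alas1 and Mpo (103.6 and 2169 CPM).

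The ratio of Alas2 to Alas1, which no scaling between libraries can move, was 2.24, 1.47, 1.07 and 3.17 in scrambled replicates 1 to 4. In knockdown replicates 1 to 4 it was 3.01, 2.39, 9.66 and 1.48. The groups overlapped, and only replicate 3 stood clear of both. Both levels added gave 81.7 to 132 CPM in the scrambled and 146 to 263 CPM in the knockdown libraries, with no overlap. So 75.0, 70.5, 90.6 and 59.7% of the synthase counts came from Alas2 in knockdown replicates 1 to 4, against 51.7 to 76.0% in the scrambled libraries.

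Slc25a38 encodes the carrier that brings glycine into erythroid mitochondria for the first step (chromosome 9 from 120110374 to 120124504, plus strand of GRCm38). It measured 172, 166, 152 and 161 CPM in the scrambled libraries, and 143, 133, 180 and 140 CPM in the knockdown libraries. Replicates 1, 2 and 4 of the knockdown lay below all scrambled libraries and replicate 3 above them. The log2 fold change was -0.12 (SE 0.095, 95% interval -0.34 to 0.09; edgeR adjusted p = 0.400), and -0.24 without replicate 3 (SE 0.06, adjusted p = 0.0243, range over the alternatives 0.0243 to 0.645).

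Of the 3 cytosolic enzymes among the 9, edgeR called 0 with all libraries; DESeq2 called 1, Urod. Alad, whose product joins aminolaevulinate into porphobilinogen (chromosome 4 from 62509169 to 62519918 on the minus strand), ranged from 328.9 to 421.5 CPM in the scrambled and from 276.5 to 391.2 CPM in the knockdown libraries. The groups overlapped, with a log2 fold change of -0.17 (95% interval -0.43 to 0.09; edgeR adjusted p = 0.342). Uros, whose product closes the ring (chromosome 7 from 133686243 to 133710072 on the minus strand), ranged from 122 to 138 and from 114 to 170 CPM, with a log2 fold change of 0.08 (95% interval -0.19 to 0.35; edgeR adjusted p = 0.684).

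Urod encodes uroporphyrinogen decarboxylase, the last cytosolic enzyme (chromosome 4 from 116989965 to 116994413 on the minus strand). Scrambled mice 1 to 4 had 340, 359, 321 and 316 CPM, and knockdown mice 1 to 4 had 242, 245, 333 and 245 CPM. The 3 knockdown libraries other than replicate 3 lay within 3 CPM of each other, and replicate 3 lay among the scrambled libraries. With all libraries the level was 79.8% of the scrambled level (log2 fold change -0.33, SE 0.11, 95% interval -0.57 to -0.08), which missed the threshold (edgeR adjusted p = 0.0701). It passed with DESeq2 (0.0291) and in the authors' deposited table (log2 fold change -0.32, adjusted p = 0.0314). Without knockdown replicate 3 the level was 72.7% (log2 fold change -0.46, SE 0.06, adjusted p = 0.00277), and the range over the alternatives was 0.00277 to 0.151.

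Cpox, which encodes coproporphyrinogen oxidase of the mitochondrial intermembrane space, was the most abundant of the 9. It measured 1512, 1431, 1377 and 1610 CPM in the scrambled libraries, and 1117, 1141, 1536 and 1088 CPM in the knockdown libraries. As for Urod, knockdown replicates 1, 2 and 4 lay below all scrambled libraries and replicate 3 among them. The log2 fold change was -0.28 (SE 0.11, 95% interval -0.54 to -0.03; edgeR adjusted p = 0.117). Without replicate 3 it was -0.42 (SE 0.06, adjusted p = 0.00386), and the range over the alternatives was 0.00386 to 0.227. Cpox (ENSMUSG00000022742, chromosome 16 from 58670292 to 58717636 on the plus strand) shares 204 exonic bases with Gpr15 on the other strand, which reached at most 0.443 CPM.

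The final steps showed no difference past the threshold. Ppox, whose product oxidises protoporphyrinogen (chromosome 1 from 171275990 to 171281186 on the minus strand), ranged from 170 to 229 CPM in the scrambled and from 164 to 248 CPM in the knockdown libraries. Its log2 fold change was 0.07 (95% interval -0.24 to 0.37; edgeR adjusted p = 0.777). It shares 791 exonic bases, 17.5% of its exonic length, with B4galt3 on the other strand, which measured 36.9 ± 2.13 and 31.4 ± 1.79 CPM (SD, n = 4 per group). Fech encodes ferrochelatase, which inserts iron into protoporphyrin. It measured 440, 404, 370 and 452 CPM in the scrambled and 400, 396, 556 and 419 CPM in the knockdown libraries. Replicate 3 stood above all other libraries and the rest overlapped, with a log2 fold change of 0.09 (95% interval -0.18 to 0.35; edgeR adjusted p = 0.652). Without replicate 3 the fitted changes of Uros, Ppox and Fech turned to -0.05, -0.06 and -0.05, none of them called.

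**Figure D3:**
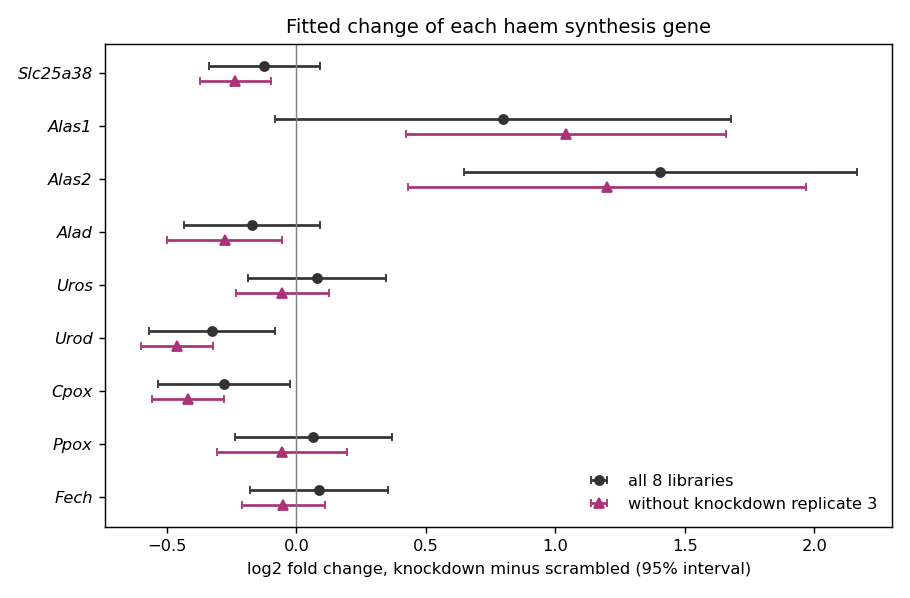
Fitted log2 fold change of each gene, knockdown minus scrambled, with unadjusted 95% intervals, from all 8 libraries (circles) and without knockdown replicate 3 (triangles). The Urod estimate lies at -0.33 and -0.46, Cpox at -0.28 and -0.42, and Alas2 at 1.40 and 1.20.

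Ratios of transcripts within a library need no scaling between libraries. Of the 36 pairs among the 9 genes, 15 had ratios that did not overlap between the groups, a share of 41.7%. Among all pairs of 13389 tested genes with counts in every library that share was 19.5%. The 36 pairs share genes and are not independent. The pairs of all genes were not matched to the members for level and include genes with few counts. All 7 pairs of Alas2 with a gene other than Alas1 were among them, and none with Alas1. Among the 21 pairs without either synthase gene there were 8 (38.1%), knockdown replicate 3 included. The ratio of Cpox to Fech was 3.43, 3.54, 3.72 and 3.56 in scrambled replicates 1 to 4, and 2.79, 2.88, 2.76 and 2.60 in knockdown replicates 1 to 4. The means were 3.56 ± 0.118 and 2.76 ± 0.119 (SD, n = 4 per group), a gap several times the SD of either group. Urod to Fech differed the same way, at 0.771, 0.888, 0.868 and 0.697 in the scrambled and 0.607, 0.618, 0.598 and 0.586 in the knockdown libraries. Knockdown replicate 3 lay with its group in both ratios, although its levels of Urod and Cpox lay with the scrambled group. Urod to Cpox overlapped (0.226 ± 0.0228 and 0.218 ± 0.00480), as did Ppox to Fech (0.465 ± 0.0306 and 0.459 ± 0.0472) and Uros to Fech (0.312 ± 0.0317 and 0.308 ± 0.0193; SD, n = 4 per group). In these libraries Urod and Cpox were thus low relative to Uros and Fech in every knockdown mouse. The ratios of Slc25a38 to Urod and to Cpox were higher in the knockdown than in the scrambled libraries, and that to Uros was lower, with no overlap. For Cpox the groups nearly touched, at 0.1160 in scrambled replicate 2 and 0.1165 in knockdown replicate 2. These pairs were picked out after their values were seen and carry no test, and such ratios show unequal change, not which gene changed.

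**Figure D4:**
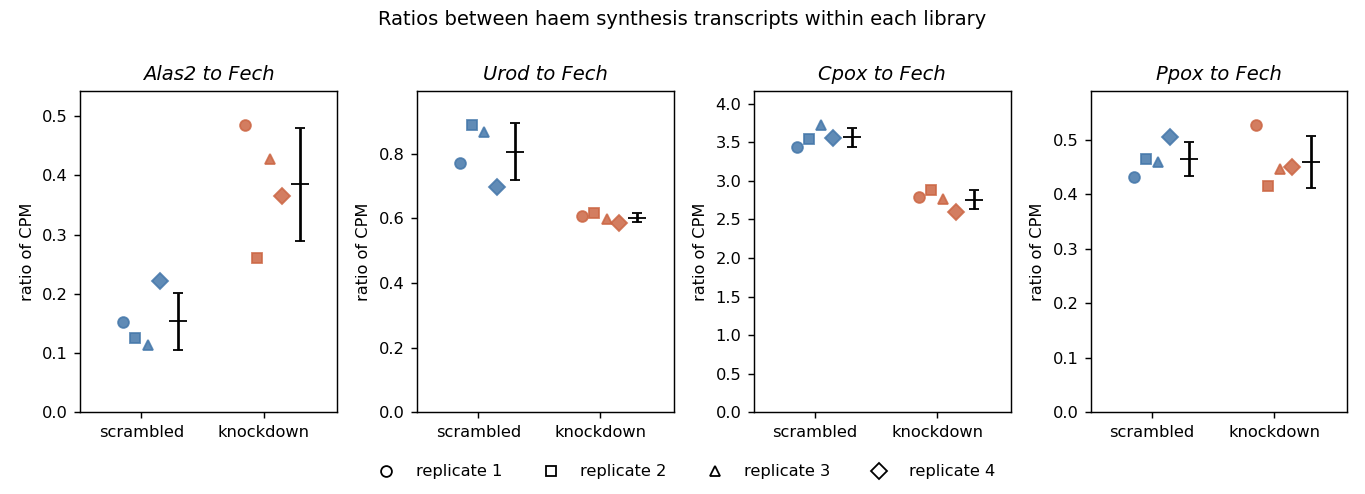
Ratios of CPM to that of Fech within each library for Alas2, Urod, Cpox and Ppox, with the replicate as the marker shape and the mean ± SD to the right (n = 4 per group). Cpox to Fech spans 3.43 to 3.72 in the scrambled and 2.60 to 2.88 in the knockdown libraries, and Ppox to Fech overlaps.

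The root mean square difference restates the spread of these ratios and is no separate evidence. Over the 8 libraries the closest pair was Urod and Cpox (0.10), then Uros and Fech (0.11) and Ppox and Fech (0.11). The farthest were Alas2 and Urod (0.98). Outside the pathway, the gene nearest to Fech was Mki67, a marker of dividing cells (0.03), which measured 2239 ± 196 and 2360 ± 384 CPM (SD, n = 4 per group; edgeR adjusted p = 0.687). Among the 3 nearest to Cpox was Ank1, the red cell ankyrin gene (0.06). These neighbours were picked after their values were seen. This measure uses all libraries of both groups, so shared differences between mice enter it.

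Per kilobase of exon, the union of all GENCODE M21 exons of a gene, the pathway's transcripts differed widely in level. In the scrambled libraries Cpox (223 ± 15.2 CPM per kilobase) and Alad (196 ± 21.8) stood highest and overlapped. Urod (129 ± 7.52) and Slc25a38 (59.1 ± 3.09) each stood apart. Ppox (42.9 ± 5.48) and Uros (36.1 ± 2.04) overlapped, as did Fech (30.1 ± 2.69) and Alas2 (27.1 ± 10.7), and Alas1 was lowest at 5.49 ± 0.668 (SD, n = 4). The annotated exons of Fech span 13838 bases, the longest of these genes, which lowers its value on this scale. In the knockdown libraries Alas2 reached 71.6 ± 24.0 CPM per kilobase, and Alas1 stayed the lowest (9.55 ± 5.49). By group means Alas2 moved from rank 8 to rank 4 of the 9 genes, but neither rank was clear of its neighbours. In the scrambled libraries Alas2 spanned 17.6 to 41.8 CPM per kilobase and also overlapped Ppox and Uros. In the knockdown libraries it spanned 42.9 to 99.1 and overlapped Urod, Slc25a38, Ppox and Uros.

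Genes that regulate, feed or use the pathway showed more decreases than increases. Of 55 tested genes of haem handling, 9 fell and 2 rose by edgeR, where 7.29% of all tested genes were called lower and 8.02% higher. Their median log2 fold change was -0.04, against 0.00 over all tested genes. Bach1, a repressor that haem itself inactivates, was higher, at 67.1 ± 4.52 against 46.8 ± 3.11 CPM (SD, n = 4 per group). The log2 fold change was 0.52 (SE 0.07, edgeR adjusted p = 0.00527), and it was called in all 14 alternatives. Aco1, which encodes the iron regulatory protein 1 that binds elements like that of Alas2, was lower, at 107 ± 17.6 against 161 ± 32.4 CPM (SD, n = 4 per group). Its log2 fold change was -0.59 (SE 0.17, edgeR adjusted p = 0.0469). Its groups overlapped, and with 1 library left out its call held in only 2 of 8 cases, those without scrambled replicate 4 or knockdown replicate 3 (range over the alternatives 0.00476 to 0.122). Ireb2, the gene of the second such protein, had a log2 fold change of -0.10 (adjusted p = 0.441). The other 9 regulators include the kinase gene Eif2ak1, which senses haem, and Clpx, whose product unfolds the synthase. Of these 8 were tested, and edgeR called 0 of them. Over all tested genes 4508 of 13462 had an unadjusted p under 0.05, and among these 8 there was 1. That was Sucla2, a subunit gene of succinyl-CoA synthetase, which DESeq2 called lower (log2 fold change -0.17, adjusted p = 0.0249) and limma-voom did not.

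Iron-sulfur clusters are built in mitochondria beside haem, and ferrochelatase carries one. Of 17 tested genes of mitochondrial iron and cluster assembly 5 fell and 0 rose by edgeR, beside 7.29% lower over all tested genes. At an unadjusted p under 0.05 also 0 rose, and 0 by DESeq2 or limma-voom. Iba57, a late assembly factor, was lower, at 57.2 ± 6.77 against 83.4 ± 3.64 CPM (SD, n = 4 per group). Its log2 fold change was -0.54 (SE 0.09, edgeR adjusted p = 0.00904), and it was called in all 14 alternatives. Its partners Isca2 (-0.45) and Isca1 (-0.30) also fell, as did the cysteine desulfurase gene Nfs1 (-0.37) and the gene of its stabilising subunit Lyrm4 (-0.57). The groups of these 5 did not overlap, as was so for 11.1% of all tested genes in that direction; Isca1 is named outside the limit of 4 per direction. Nfs1 and Lyrm4 each lost the call when scrambled replicate 1, 2 or 3 or knockdown replicate 1 was left out, and Isca2 when the same scrambled libraries or knockdown replicate 2 were. Isca1 lost it without any library but scrambled replicate 4 and knockdown replicate 3. The adjusted p of these 4 genes reached 0.115 over the alternatives. The mitochondrial iron importer Slc25a37 measured 372 ± 119 and 476 ± 113 CPM (edgeR adjusted p = 0.363; SD, n = 4 per group).

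Of 15 tested transport genes 2 fell by edgeR, among them Pgrmc2, beside 7.29% lower over all tested genes. Pgrmc2, a haem chaperone, was at 88.7 ± 8.52 against 117 ± 5.33 CPM (SD, n = 4 per group; log2 fold change -0.40, edgeR adjusted p = 0.0136). It was called in 13 of the 14 alternatives (adjusted p up to 0.0747), among them each library left out. Tmem14c, which brings protoporphyrinogen into the matrix, was among the 3 genes nearest to Slc25a38 and measured 577 ± 33.6 and 516 ± 82.2 CPM (edgeR adjusted p = 0.315). Of the haem A and cytochrome c genes, Cox15, the haem A synthase gene, fell by 0.43 on the log2 scale (adjusted p = 0.00644), and Hccs, which attaches haem to cytochrome c, rose by 0.23 (adjusted p = 0.0350). Cox15 was called in 13 of the 14 alternatives (adjusted p up to 0.0537), each library left out among them. With 1 library left out Hccs was called only without scrambled replicate 4 or knockdown replicate 3 (adjusted p up to 0.135 over the alternatives). No haem breakdown gene of 5 was called by edgeR. Beside 4508 of all 13462 tested genes with an unadjusted p under 0.05, there was 1 of the 5. That was Hmox1, the inducible haem oxygenase gene, at 1.47 ± 1.34 and 3.87 ± 0.932 CPM (SD, n = 4 per group; adjusted p = 0.101). It was called by DESeq2 (0.0264), by limma-voom (0.0353) and without scrambled replicate 4 (0.00901), with a range over the alternatives of 0.00901 to 0.206.

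Of 11 tested erythroid transcription factor genes, a list that includes the receptor gene Epor, 5 fell and 0 rose by edgeR, beside 7.29% lower over all tested genes, with 0 increases also at an unadjusted p under 0.05, by DESeq2 and by limma-voom. Klf1, a driver of globin and haem synthesis genes, spanned 484 to 540 CPM in the scrambled and 343 to 403 CPM in the knockdown libraries, with no overlap (log2 fold change -0.46, SE 0.07, edgeR adjusted p = 0.00602). Gata1, the gene of a GATA factor, fell by 0.34 on the log2 scale (edgeR adjusted p = 0.0419) with no overlap. With 1 library left out Gata1 was called in 2 of 8 cases, those without knockdown replicates 3 or 4. Lmo2 fell by 1.00, Epor by 0.42 and Ldb1 by 0.30 on the log2 scale. Ldb1 lost its call without scrambled replicates 1, 2 or 3 (adjusted p up to 0.0775 over the alternatives). Tal1, another factor of that complex, was among the 3 genes nearest to Uros and measured 504 ± 14.1 and 499 ± 66.6 CPM (SD, n = 4 per group; edgeR adjusted p = 0.928).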

How the data were processed

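RNA-seq of 8 libraries was used, each from the marrow of 1 mouse. The authors deposited whole-number read counts per gene, without normalization, from a stranded total RNA kit per the labels' protocols. The labels name different ribosomal depletion kits without assigning them to libraries. CASAVA 1.8 is named in the submitters' processing notes; for the aligner, counter, strand setting, annotation and build nothing is stated in the sources used here. The authors' log2 fold changes and adjusted p-values were deposited in the same table, made with DESeq2 1.18.1 per the submitters' processing notes. Columns were matched to samples by number, and 0 were left unmatched.

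Counts were tested with edgeR 4.0.16 (R 4.3.3): filterByExpr, TMM scaling, robust quasi-likelihood fit on the group, two-sided F test, Benjamini-Hochberg adjustment over 13462 genes, threshold 0.05. The SE is the absolute log2 fold change over the root of F. Alternatives were DESeq2 1.42.0, limma-voom 3.58.1, RLE factors, no filter, at least 1 CPM in 4 libraries, the replicate number as a block, and each library left out. The tests were tested on simulated data. Log2 CPM for likeness used a prior count of 2. Gene coordinates come from GENCODE M21 by Ensembl ID, sequences from RefSeq windows and GENCODE transcripts.

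Named were all 9 members, up to 4 called genes per list and direction, and the 3 nearest genes of a called member; Tmem14c, Ireb2, Slc25a37, Hmox1, Tal1, Mki67, Ank1 and others outside that rule were chosen after their values were seen. The members and lists were chosen with earlier results of these data known. No set test was run. A few listed genes are not reported here by name. Each value's precision is limited by 4 mice per group. The p-values weigh the difference between the groups against the spread between mice of the same group.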

Additional observations from a re-analysis of the deposited data

Results flagged for a closer look

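In 3 of the 18 sets of 4 libraries checked, 9 genes in each group, 1 library stood far from the rest by Dixon's test, which chance flags in about 1 set in 20. All 3 were knockdown replicate 3. It measured 333 CPM for Urod, where the next knockdown library had 245 CPM, and 1536 CPM for Cpox, where the next had 1141 CPM. For Fech it measured 556 CPM and the next knockdown library 419 CPM. The genes share that library, so these are not 3 independent signs.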

How the results depend on the processing

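Against 2062 genes called with all libraries, DESeq2 called 3588 and the replicate block 400; leaving out 1 library gave 526 to 3425. The count of members called higher, 1, was 0 with no low count filter and with the replicate block, and 0 to 2 with a library left out. The count of members called lower, 0, was 1 with DESeq2, and 0 to 3 with a library left out. Of haem handling genes, 2 rose, against 1 with no low count filter or the replicate block and 1 to 3 with a library left out. The 9 that fell became 4 with the replicate block and 3 to 14 with a library left out. The upper ends for lower calls and for members came without knockdown replicate 3. The mean Alas2 to Alas1 ratio of the knockdown over that of the scrambled group, 2.08, ran from 1.15 without knockdown replicate 3 to 2.60. No pairing of the mice by the replicate numbers of the titles was seen: deviations of same-numbered libraries correlated at -0.42, 0.02, -0.56 and -0.22. No scrambled library correlated best with the knockdown library of its own number. Such correlations cannot show whether same-numbered mice were handled together. Under that block Alas2 had a log2 fold change of 1.41 (adjusted p = 0.0939). The block left 1 of 5 lower calls among erythroid transcription factors, 3 of 5 for mitochondrial iron and clusters, 0 of 2 for transport and 0 of 1 for haem A and cytochrome c. It left 0 of 2 higher globin calls and 1 of 2 higher late erythroid marker calls. RLE factors or a filter at 1 CPM moved no member's call, and the fitted sign of each of the 9 members was the same under both, under DESeq2, limma-voom and no filter. Uros, Ppox and Fech have 95% intervals that reach 0.35 to 0.37 on the log2 scale, so increases up to that size lie within them.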
